A study of Mus musculus with 6 samples.

Results

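Setd2 and 8 other mouse genes form the group of H3K36 methyltransferases (enzymes that methylate lysine K36 of histone H3) described here, in embryonic stem cells with and without Setd2. Members were all probe sets, the groups of short probes that read 1 transcript, whose platform annotation names a single gene on the list Setd2, Nsd1, Nsd2 (Whsc1), Nsd3 (Whsc1l1), Ash1l, Setd3, Setd5, Setmar and Smyd2. This gave 23 of the 45037 probe sets, for 8 of the 9 genes: 1 for Setd2, 4 for Nsd1, 5 for Nsd2, 6 for Nsd3, 2 for Setd3, 3 for Setd5, 1 for Setmar and 1 for Smyd2. Ash1l was not analysed here, since no probe set of the annotation used carries its name.

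The study set 3 arrays of Setd2 wild type cells against 3 arrays of Setd2 knockout cells, each from total RNA of a sample called a biological repeat. Both genotypes came from the strain background 129SV/C57BL/6, had no treatment and grew on feeder cells, which were thinned out by settling and by a passage on gelatin before RNA was taken. The labels name neither the deleted part of Setd2 nor the number of clones behind a genotype, so p-values measure the spread between these samples only. Signals are on the log2 scale, so 1 unit is a 2-fold change. A level is not comparable between probe sets, because probes differ in how strongly they bind.

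Methyl groups on H3K36 mark transcribed and intergenic chromatin in different degrees. The Nsd enzymes and Ash1l add the lower degrees, and Setd2, which travels with elongating RNA polymerase II, makes the trimethylated form in gene bodies. Proteins with a PWWP or chromo domain read these marks, among them de novo DNA methyltransferases and factors of splicing and mismatch repair. Setd3, Setd5, Setmar and Smyd2 have also been listed as H3K36 enzymes. Setd3 is now known as the histidine methyltransferase of actin, and Smyd2 also methylates proteins outside chromatin such as p53.

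Of the probe sets, 20 passed the filter on dim signals (a mean over all arrays of at least 5.27) and stood for 8 genes. In limma, with p-values adjusted over all 27022 tested probe sets and a threshold of 0.05, 1 of the 20 was lower in knockout cells and 0 were higher, against 0.374% lower and 0.274% higher of all probe sets tested. The 1 was Setd2. With the replicate number of the arrays as a block, 2 were lower and 0 higher, against 4.39% and 3.49%; the second was a probe set of Nsd3. Without adjustment, 5 of the 20 had a p under 0.05 and a lower level and 0 a higher one, against 5.93% and 5.74% of all tested probe sets. The median difference over the 20 was -0.21, beside 0.01 over all tested probe sets, and 16 of the 20 (80%) lay below 0, beside 48.6% of all. Many of these probe sets read the same transcript, so they are not independent, and 6 of them belong to Nsd3 on chromosome 8, whose genes were lower as a whole.

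At 6 of the 20 probe sets all 3 knockout values lay below all 3 wild type values, and at 1 all lay above. Over all tested probe sets the shares were 8.99% and 9.16%. The 6 were those of Setd2, 3 of Nsd2, 1 of Nsd3 and 1 of Setd5, and the 1 was that of Setmar.

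Setd2, the trimethylating enzyme and the gene knocked out, fell. Its probe set (1428555_at) read 10.31, 10.30 and 10.31 on wild type arrays 1 to 3, and 9.37, 9.50 and 9.60 on knockout arrays 1 to 3. The wild type arrays were nearly equal and all knockout arrays lay below them. The mean went from 10.30 ± 0.01 to 9.49 ± 0.12 (SD, n = 3 each), a fall by 0.82 ± 0.12 (SE) on the log2 scale, or a signal 1.76-fold lower (95% interval of the difference -1.09 to -0.54; limma adjusted p = 0.0272, or 0.000744 under the replicate block). The difference was -0.94 between the arrays numbered 1, -0.80 between those numbered 2 and -0.71 between those numbered 3. Whether the probe set lies inside the deleted part was not tested, since the labels do not place the deletion. The call was lost in limma without the intensity trend (adjusted p = 0.0916, and 0.126 with the replicate block as well). It was lost too when any wild type array was left out (replicates 1, 2 and 3, with adjusted p of 0.0704, 0.176 and 0.214), and when knockout replicate 2 or 3 was (0.135 and 0.102), while the difference stayed between -0.87 and -0.76.

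**Figure D1:**
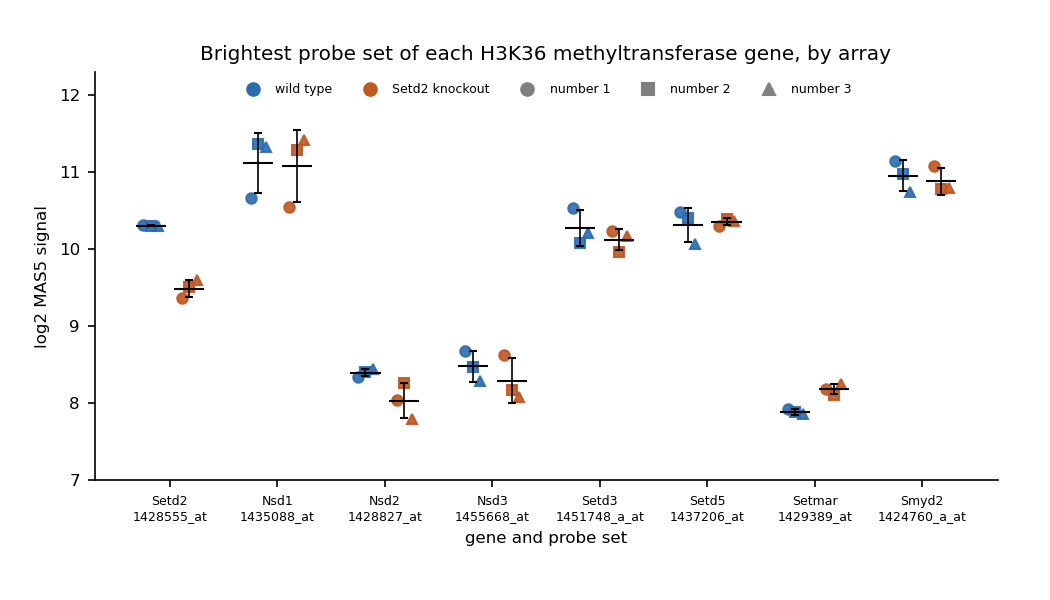
Log2 MAS5 signal (vertical axis) of the brightest probe set of each of the 8 genes (horizontal axis) on each array; blue is wild type, orange Setd2 knockout, circles, squares and triangles the arrays numbered 1, 2 and 3, and black bars the mean and SD (n = 3). Setd2 parts the genotypes with a fall by 0.82. Nsd2 and Setmar part them too, with differences of -0.36 and 0.30 that missed the threshold. Nsd1 parts the arrays numbered 1 from the rest. Heights are not comparable between probe sets.

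The genotypes differed beyond Setd2 itself. Of 4 tested genes on chromosome Y, 3 were higher in knockout cells, led by Eif2s3y, a translation initiation factor subunit gene, at 4.92 in wild type and 11.30 in knockout cells. The 709 tested genes of chromosome 8 had a median difference of -0.34, and 86.3% had a difference below 0. On the remaining chromosomes, Y aside, 48.0% of genes did. Genotype and cell line therefore cannot be told apart for any member.

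Nsd2, a dimethylating enzyme whose human gene is deleted in Wolf-Hirschhorn syndrome, read lower in knockout cells at each of its 4 tested probe sets, and no probe set passed the threshold. The brightest (1428827_at) read 8.34, 8.40 and 8.44 in wild type and 8.04, 8.26 and 7.80 in knockout cells. Its groups did not overlap, and the difference was -0.36 ± 0.17 (SE; 95% interval -0.75 to 0.03; limma adjusted p = 0.461). A second probe set (1455228_at) read 7.05, 7.21 and 7.06 in wild type and 6.68, 6.40 and 6.02 in knockout cells.

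That second probe set differed by -0.74 ± 0.24 (SE; -1.28 to -0.20; limma adjusted p = 0.259, or 0.0802 under the replicate block), the difference nearest in size to that of Setd2 among the tested members. Another (1435136_at), which is annotated with the same source sequence as the second, read 7.28, 6.69 and 6.54 in wild type and 6.19, 6.50 and 5.81 in knockout cells. Here too the groups did not overlap, with a difference of -0.67 (-1.34 to -0.0013; limma adjusted p = 0.427). The fourth (1436036_at) differed by -0.24 (-0.91 to 0.43) and its groups overlapped. Averaged over its 4 tested probe sets, a summary chosen after the values were seen, Nsd2 went from 7.30 ± 0.19 to 6.80 ± 0.21 (SD, n = 3). That difference of -0.50 ± 0.20 (SE; -0.96 to -0.05) did not pass in a limma fit over 12915 gene averages (adjusted p = 0.344, or 0.115 under the replicate block). The fifth probe set (1443741_x_at) was too dim to be tested, and its arrays ran from 2.21 to 6.11 with the higher mean in knockout cells.

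Nsd3, the third enzyme of the Nsd family, is on chromosome 8. All 6 of its probe sets were tested and all 6 differences lay below 0, from -0.54 to -0.12. The one called with the replicate block (1447931_at) read 8.68, 8.43 and 8.39 in wild type and 8.19, 7.85 and 7.85 in knockout cells, without overlap. Its difference was -0.54 ± 0.17 (SE; 95% interval -0.93 to -0.14; limma adjusted p = 0.266). The replicate block lowered the SE to 0.13 (limma adjusted p = 0.0328). By number its differences were -0.48, -0.59 and -0.54. The call with the block was lost in limma without the intensity trend (adjusted p = 0.158).

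The brightest Nsd3 probe set (1455668_at) read 8.68, 8.46 and 8.28 in wild type and 8.62, 8.17 and 8.08 in knockout cells. The groups overlapped, and the difference was -0.18 (-0.63 to 0.27; limma adjusted p = 0.798). The other 4 differed by -0.50, -0.26, -0.12 and -0.13, all with intervals that held 0. The lower quartile, median and upper quartile of the chromosome 8 genes, each at its brightest tested probe set, were -0.53, -0.34 and -0.17. On that measure Nsd3, at -0.18, lay between the quartiles and near the upper one. The average over the 6 Nsd3 probe sets, a summary chosen after the values were seen, was -0.29 (-0.72 to 0.14). Of the 709 chromosome 8 genes, 26 were lower and 0 higher in limma without a block, and 270 were lower and 0 higher with it. With the block and without the trend 0 were called (341 lower at an unadjusted p under 0.05). Whether Nsd3 differed as a member of the chromosome or by itself was not tested.

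**Figure D2:**
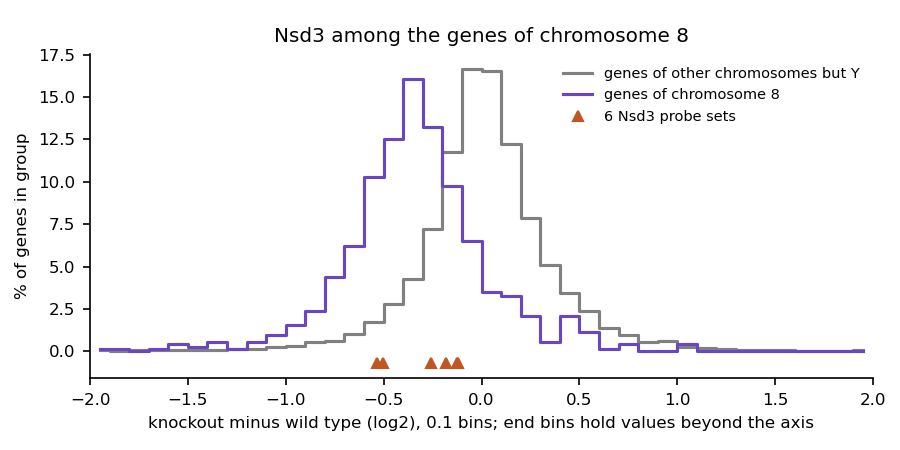
Knockout minus wild type differences (horizontal axis, log2, in bins of 0.1) as the percentage of genes in each group (vertical axis), for 709 genes of chromosome 8 (purple) and for the genes of the other chromosomes but Y (grey), each gene at its brightest tested probe set; orange triangles are the 6 Nsd3 probe sets. The chromosome 8 genes centre on -0.34 and the others near 0, and the Nsd3 probe sets lie between -0.54 and -0.12.

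Nsd1, the enzyme whose human gene is mutated in Sotos syndrome, varied with the replicate number of the arrays, and no difference between the genotypes passed the threshold. Its brightest probe set (1435088_at) read 10.67, 11.36 and 11.32 on wild type arrays 1 to 3 and 10.55, 11.29 and 11.41 on knockout arrays 1 to 3. Both arrays numbered 1 lay below the other 4, and the genotypes overlapped. The second (1440972_at) read 7.28, 8.11 and 8.43 in wild type and 6.83, 7.93 and 8.20 in knockout cells, and the third (1456916_at) 6.17, 6.99 and 7.07 against 6.52, 6.76 and 7.35. All 3 had their 2 lowest values on the arrays numbered 1, which lay 0.74, 1.11 and 0.70 below the mean of the other 4.

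In an additive limma fit of genotype and number, the F-test of the number passed for the first Nsd1 probe set (adjusted p = 0.00151) and the second (0.00443) and missed for the third (0.122). These were the 2 of 20 member probe sets that differed by number, against 13.4% of all tested probe sets. The share over all exceeds that of the members. Without the intensity trend no probe set passed the F-test (lowest adjusted p = 0.151). There, 4 of the 20 members and 5652 of the 27022 tested probe sets had an unadjusted p under 0.05. The genotype differences of the 3 Nsd1 probe sets were -0.03, -0.29 and 0.13 (limma adjusted p = 0.980, 0.860 and 0.928). For the brightest the interval was -0.63 to 0.56, and under the replicate block -0.21 to 0.14. The fourth Nsd1 probe set (1420881_at) was too dim to be tested and read 4.69, 4.34 and 3.99 against 3.61, 5.57 and 6.08.

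Many tested markers of feeder fibroblasts moved with the same numbers. Of 18 markers listed 15 were tested, and 9 of these differed by number in the same F-test. By that test 4 of 12 stem cell, 3 of 6 trophectoderm and 0 of 11 primitive endoderm markers differed. The share of all tested probe sets was 13.4%. Of the stem cell markers, Nanog read 13.12 and 13.27 on the arrays numbered 1 and 12.38 to 12.46 on the rest. Lin28a read 11.07 and 10.96 there against 11.63 to 11.80. The feeder markers Fn1 and Twist1 were highest on array 1 of each genotype. The mean level of the 15 feeder markers was 7.37 and 7.16 on wild type array 1 and knockout array 1, and the remaining 4 arrays had means of 8.04 to 8.47. Summed on the log2 scale, which is not a total signal, the 15 ran from 110.5 to 127.1 over the wild type arrays. Over the knockout arrays this sum ran from 107.4 to 126.7. By genotype 0 of the 15 passed in limma (2 at an unadjusted p under 0.05). With the replicate block 2 were higher, Fn1 and Pdgfrb. The part of feeder cells in the Nsd1 values was not tested, and in such bulk RNA fewer cells of a type and less RNA per cell cannot be told apart.

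**Figure D3:**
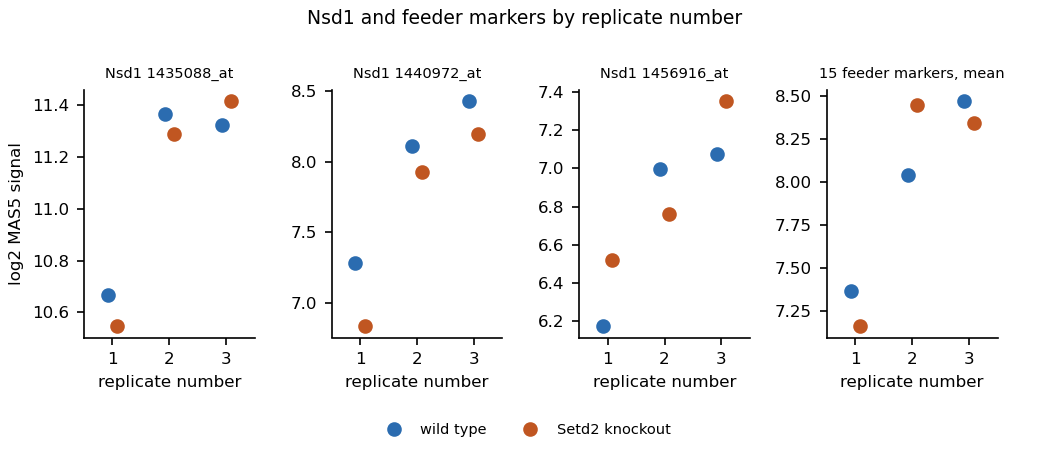
Log2 MAS5 signal (vertical axes, each panel with its own range) against the replicate number in the labels (horizontal axes) for the 3 tested Nsd1 probe sets and for the mean over 15 feeder markers; blue is wild type, orange Setd2 knockout, 1 point per array. In every panel the arrays numbered 1 are the lowest of their genotype.

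Setd5, whose SET domain has disputed activity and which binds deacetylase complexes, gave probe sets that differed from one another. The brightest (1437206_at) read 10.48, 10.40 and 10.07 in wild type and 10.30, 10.40 and 10.36 in knockout cells, which overlap. Its difference was 0.04 (95% interval -0.27 to 0.35; limma adjusted p = 0.952). The second (1439515_at) read 7.95, 7.72 and 7.74 in wild type and 7.40, 7.36 and 7.40 in knockout cells, which do not overlap. It differed by -0.42 ± 0.16 (SE; -0.80 to -0.04) and missed the threshold (limma adjusted p = 0.370, or 0.152 under the replicate block). The third (1441125_at), too dim to be tested, ran from 2.25 to 5.49.

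Setmar in mouse has the SET domain without the transposase fused to it in primates. Its probe set was the 1 of 20 tested members with all knockout values above all wild type values, beside 9.16% of all tested probe sets. It read 7.92, 7.88 and 7.85 in wild type and 8.19, 8.11 and 8.25 in knockout cells. The difference of 0.30 ± 0.15 (SE; 95% interval -0.04 to 0.64) did not pass in limma (adjusted p = 0.496, or 0.244 under the replicate block). The differences by number were 0.27, 0.23 and 0.39.

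Setd3 and Smyd2 showed no difference past the threshold, with overlapping genotypes. Setd3 (1451748_a_at) read 10.53, 10.08 and 10.21 in wild type and 10.23, 9.97 and 10.17 in knockout cells, a difference of -0.15 (95% interval -0.49 to 0.19; limma adjusted p = 0.775). Its other probe set (1440163_at) differed by 0.06 (-0.54 to 0.66). Smyd2 (1424760_a_at) read 11.14, 10.98 and 10.74 against 11.08, 10.77 and 10.79, a difference of -0.07 (-0.39 to 0.25; limma adjusted p = 0.906). With the replicate block its interval was -0.25 to 0.11.

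**Figure D4:**
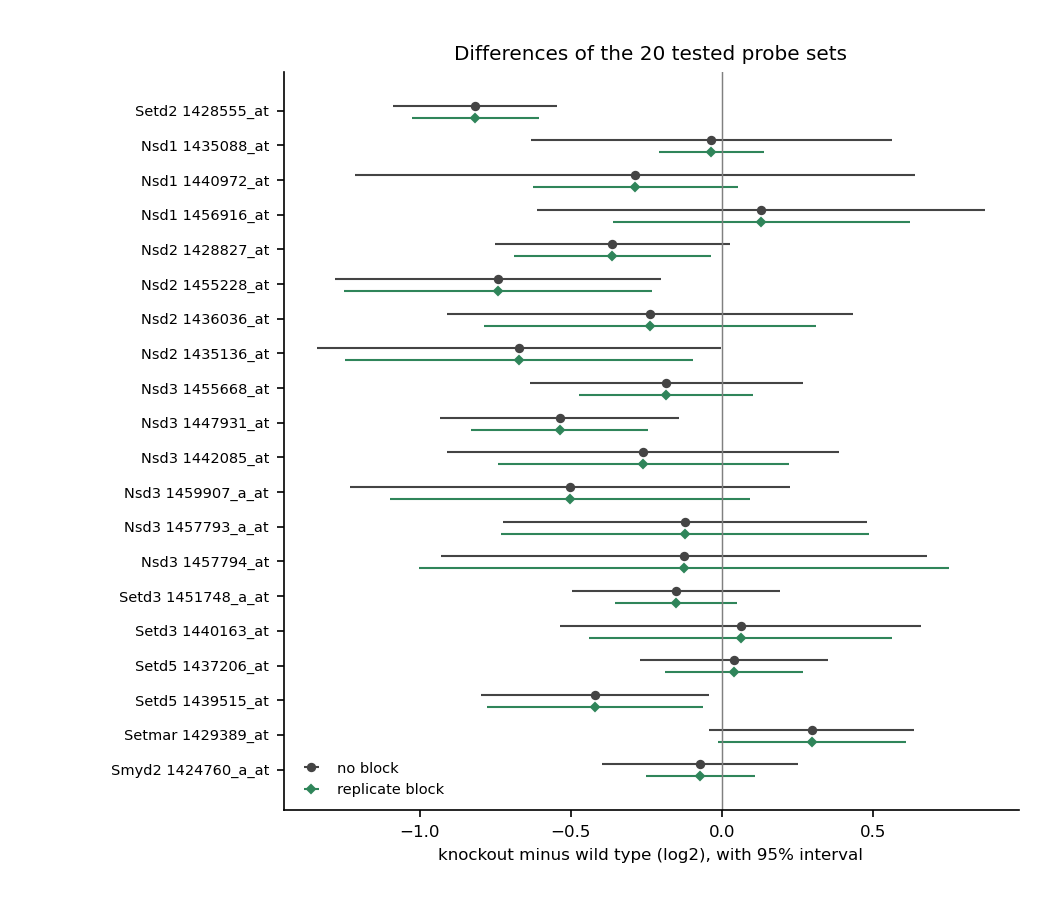
Knockout minus wild type differences (horizontal axis, log2) of the 20 tested probe sets (vertical axis, by gene and probe set) with 95% intervals, from the limma fit without a block (grey circles) and with the replicate number as a block (green diamonds). Setd2 lies at -0.82 with an interval of -1.09 to -0.54, the points of Nsd2 and Nsd3 all lie left of 0, and the block narrows the intervals of the first 2 Nsd1 probe sets most.

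For the brightest probe sets of Nsd1, Setd3, Setd5 and Smyd2, the upper bounds of the 95% intervals were 0.56, 0.19, 0.35 and 0.25 without a block. With the replicate block they were 0.14, 0.05, 0.27 and 0.11. For Nsd2 and Nsd3 the bounds at the brightest probe set were 0.03 and 0.27, and for Setmar 0.64. The block gave -0.04, 0.10 and 0.61 for these 3, with the limma adjusted p of Nsd2 at 0.177. Bounds without a block were higher at some other probe sets, such as 0.87 for Nsd1 (1456916_at) and 0.66 for Setd3 (1440163_at). At others they were lower, such as -0.04 for Setd5 (1439515_at). No member was called higher in any of the fits run.

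The array pattern most like that of Setd2 was sought among 16292 tested probe sets of single genes with a range over the arrays of at least 0.5. Ranked by Pearson r over the 6 arrays, the first 5 were Glg1 (r = 0.9994), a Golgi glycoprotein gene, Ppp2r1b (0.9987), a phosphatase scaffold gene, Xrcc5 (0.9950), the Ku80 gene of end joining, Exo1 (0.9948), an exonuclease gene of mismatch repair, and Ccnb1ip1 (0.9945), a ubiquitin ligase gene of meiosis. They were the highest of many candidates and 19 exceeded 0.99, so the values describe these 6 arrays only. Ccnb1ip1 fell by 3.44 on the log2 scale (limma adjusted p = 0.000156), while Glg1, Ppp2r1b, Xrcc5 and Exo1 differed by -0.68, -0.46, -0.52 and -1.27 and missed the threshold (0.0623, 0.0612, 0.0618 and 0.0752). These 4 passed with the replicate block (0.00312, 0.00291, 0.00261 and 0.0231) and missed when the trend was dropped as well (0.137, 0.168, 0.165 and 0.0940). Glg1 is on chromosome 8.

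Genes that lie next to Setd2 on chromosome 9 were followed as 5 tested neighbours on each side. Of these 10, 0 passed the threshold in limma (1 at an unadjusted p under 0.05), 8 lay below 0 and the median was -0.15, beside -0.00056 over all genes. The brightest were Ccdc12, a splicing factor gene, at -0.08 (limma adjusted p = 0.894), and Scap, the escort of the sterol regulatory factors. Scap read 9.93, 10.03 and 10.02 in wild type and 9.69, 9.42 and 9.44 in knockout cells, without overlap. Its difference of -0.48 ± 0.13 (SE) missed the threshold (limma adjusted p = 0.185) and passed with the replicate block (0.0217), though not when the intensity trend was dropped as well (0.192).

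The genes listed as H3K36 demethylases, enzymes that remove the mark, did not pass either. Whether each has that activity was not tested. Of 8 tested genes of the list 0 were higher or lower in limma (1 at an unadjusted p under 0.05; 0 with the replicate block), and the median was 0.08. The brightest, Kdm2b, which removes the lower degrees at CpG islands, differed by 0.10 (95% interval -0.19 to 0.40), and Riox2, an oxygenase gene, by 0.05 (-0.23 to 0.33).

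Of 18 tested genes listed as readers of H3K36 methylation 0 passed the threshold (limma; 4 at an unadjusted p under 0.05), with a median of 0.06. With the replicate block 2 were higher and 1 lower. Dnmt3b, a de novo DNA methyltransferase with a PWWP domain, read 13.52, 13.45 and 13.52 in wild type and 13.75, 13.79 and 14.17 in knockout cells, without overlap. Its difference was 0.40 ± 0.11 (SE; limma adjusted p = 0.186, or 0.00985 under the replicate block). Its paralog Dnmt3a, named after its values were seen, read 12.25, 12.56 and 12.17 against 11.43, 12.09 and 12.06, a difference of -0.47 (0.379, and 0.0286 with the block). Mtf2, a Polycomb accessory gene likewise named after its values were seen, differed by 0.24 (limma adjusted p = 0.519, and 0.0327 with the block). With the block and without the intensity trend the calls of Dnmt3b, Dnmt3a and Mtf2 were lost (adjusted p = 0.236, 0.276 and 0.308). The brightest gene of this list, Morf4l2, differed by 0.03 (-0.13 to 0.19). Morf4l1, also listed, had no probe set that names it alone and was not measured. Whether each listed gene product binds the mark was not tested.

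Of 16 tested genes listed as partners of Setd2 in elongation, 0 passed in limma (1 at an unadjusted p under 0.05, and 0 with the replicate block). The median was 0.02, and whether each gene product works beside Setd2 was not tested. Supt16, a subunit of the FACT histone chaperone, and Polr2b, a polymerase subunit gene, differed by -0.09 and 0.05. Of 30 tested lysine methyltransferase genes outside the group 0 passed (limma; 3 at an unadjusted p under 0.05), with a median of 0.02. Ezh2, the H3K27 enzyme, and Kmt5a, an H4K20 enzyme, differed by 0.05 (95% interval -0.16 to 0.27) and -0.12 (-0.37 to 0.12). With the replicate block 1 of the 30 was lower, Setd6 on chromosome 8, named after its values were seen, at -0.48 (limma adjusted p = 0.373, and 0.00824 with the block, or 0.183 with the block but no trend).

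As a look at the labelled cell type, all 12 listed embryonic stem cell markers were tested, with a mean level between 12.43 and 12.66. Each stands at its brightest probe set past the filter and detection calls were not used, so these levels do not test presence. Of the 12 markers 1 was lower in limma and 0 higher, and with the replicate block 1 was lower and 1 higher. The lower one was Zfp42, a naive pluripotency marker on chromosome 8, at -1.99. The higher one was Dppa3, a germ cell and naive state gene, at 0.80 (limma adjusted p = 0.256, and 0.00188 with the block). Of 11 primitive endoderm markers 2 were lower in limma, Gata6 at -1.63 and Col4a1 at -1.02, and 7 with the replicate block. At an unadjusted p under 0.05 in limma, 8 were lower and 0 higher, and the median of the 11 was -1.02. Over all tested probe sets 0.374% were lower without the block, 4.39% with it, and 5.93% at an unadjusted p under 0.05 without it. Col4a1, and Col4a2, which was lower with the block, lie on chromosome 8, whose genes were lower as a whole. Of 6 tested trophectoderm markers 0 passed (limma; 2 at an unadjusted p under 0.05), and 2 were higher with the block, Cdx2 and Krt18. With the block and without the trend no gene of these marker lists or of the feeder list passed (limma; lowest adjusted p = 0.0531, for Zfp42). The part of such cells in the members' values was not tested.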

How the data were processed

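Total RNA of 6 samples, 3 of each genotype, was read on Affymetrix arrays. The authors deposited log2 MAS5 signals (MAS5 per the submitters' processing notes, version not given in the sources used here). The 2% trimmed mean of the linear signals was 497.0 to 497.3 on every array, so no pseudocount or further normalization was applied. Detection calls were not used here. Depth does not apply to arrays, and their number limits the precision. Symbols came from the platform annotation, brought up to date through gene identifiers against a RefSeq table of GRCm38.p6, which served for names, chromosomes and gene order.

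Probe sets with a mean below the 40th percentile were left out of testing. Limma 3.58.1 (R 4.3.3; lmFit, eBayes with an intensity trend, two-sided, Benjamini-Hochberg over all tested probe sets, threshold 0.05) compared knockout with wild type without a block. A gene outside the group stands at its brightest tested probe set. The fit was also run on simulated arrays, with independent noise that followed the signal level and no effect of replicate number. Such arrays cannot decide between fits with and without the block or the trend. The members and lists were chosen with earlier results of these data known. Named were all members, the 5 patterns nearest to Setd2, and from each pathway list the genes past the threshold or else its 2 brightest; others are marked. Marker genes of other cell types and of stem cells were named after their values were seen.

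Deviations from the genotype means correlated across probe sets at r = 0.50, 0.23 and 0.24 between arrays of the same number 1, 2 and 3, all above 0.1. The main fit stayed without a block and does not use this pairing. Because of these correlations, the fit with the replicate block stands beside the results described here whose call or count it changes. Wild type 2 correlated with knockout 3 as well (0.23), so the numbers 2 and 3 are not clearly parted.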

Additional observations from a re-analysis of the deposited data

How the results depend on the processing

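The precision is limited by 3 arrays per genotype and, for dim probe sets, by signals near the filter value. The count of lower member probe sets, 1 in the fit as reported, was 2 with the replicate block and 0 without the intensity trend. In limma without the trend, 3120 of the 27022 tested probe sets and 6 of the 20 members had an unadjusted p under 0.05. The count of lower members was also 0 with the block and without the trend, a fit chosen after the data were seen. With single arrays left out it was 0 to 1. Setd2 differed by -0.82 in both fits without the trend, where it lost its call, and by -0.87 to -0.76 with single arrays left out. It kept its call with another filter, normalization or offset, with robust eBayes, without both arrays numbered 1 and with chromosomes 8 and Y taken out.

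Over all probe sets, 74 were higher and 101 lower. With the replicate block the counts were 944 and 1185, without both arrays numbered 1 they were 919 and 1114, without the trend 30 and 27, and with the block and without the trend 8 and 4. With chromosomes 8 and Y taken out, 64 were lower, with fewer probe sets tested. Leaving out single arrays gave 17 to 158 higher and 14 to 273 lower. Of the listed genes of the H3K36 pathway and beside Setd2, 2 were higher and 3 lower with the block and likewise without the arrays numbered 1, against 0 and 0 as reported. They were 0 and 0 again without the trend and with the block and without the trend, so all 5 blocked calls were lost. Without the trend, 0 members and 0 of all probe sets differed by replicate number. Why the counts moved was not tested.

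Some differences changed sign, none of them past the threshold. Without both arrays numbered 1, Nsd1 (1435088_at) stood at 0.0077 and Setd3 (1440163_at) at -0.026. Under median centring Setd5 (1437206_at) stood at -0.00092, and averaged over its probe sets Setd5 stood at -0.19. With single arrays left out, Nsd1 ran from -0.26 to 0.23 (1435088_at), -0.62 to 0.12 (1440972_at) and -0.16 to 0.31 (1456916_at), and Nsd2 from -0.53 to 0.021 (1436036_at). Nsd3 ran from -0.28 to 0.016 (1457793_a_at) and -0.27 to 0.079 (1457794_at), Setd3 from -0.11 to 0.19 (1440163_at), Setd5 from -0.084 to 0.12 (1437206_at) and Smyd2 from -0.18 to 0.023 (1424760_a_at).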
